A study of Homo sapiens with 6 samples.

Results

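The genes of enzymes that add or remove acetyl and methyl groups on histone lysines were compared between khellin and control libraries of MDA-MB-231. This line comes from a human breast cancer of the triple-negative type, and khellin is a furanochromone that the plant Ammi visnaga makes. The set was defined by gene name. It took protein-coding genes called KDM, KMT, SETD, HDAC or KAT with a number, and added EZH1, EZH2, EHMT1, EHMT2, EP300 and CREBBP. The rule found 58 of the 27776 genes in the count table, and it uses gene names and the protein-coding label only, although the set itself was proposed with earlier results of these data known. All 58 passed edgeR's filter on low counts, so all were tested.

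The groups were 3 khellin libraries and 3 control libraries of polyadenylated RNA, without a stated dose or exposure time. The 3 control libraries are called control in the sample titles, while the series' design text names a docetaxel-resistant group in that place, and the labels do not settle whether the control cells, or the khellin cells as well, were resistant. Replicates are biological by the sample titles, but nothing ties them to separate cultures, so p-values measure only the spread between these samples. Libraries held 28631578 to 30956610 counts, and levels are given as CPM (read counts divided by the TMM-scaled library size), where 3 counts stood for 0.0977 to 0.103 CPM. The 6 markers of the line averaged 79.4 to 2146 CPM over both groups, with VIM the highest at 2146 CPM in khellin and 1971 CPM in control libraries. Of the luminal genes, ESR1 and PGR averaged 0.322 and 0.367 CPM in khellin and 0.28 and 0.269 CPM in control libraries, while ERBB2 averaged 117.8 CPM in khellin and 103.0 CPM in control libraries, and GATA3, FOXA1 and the epithelial EPCAM lay between 4.09 and 6.52 CPM in both groups. CDH1 reached at most 2 reads in a library. Among markers of other cell types, 3 reached more than 8 reads in a library, and their means were higher with khellin. COL1A1 averaged 11.0 CPM in khellin and 6.08 CPM in control libraries, PDGFRB 0.945 CPM in khellin and 0.371 CPM in control libraries, and the endothelial PECAM1 2.45 CPM in khellin and 1.59 CPM in control libraries. COL1A2 and COL3A1 had at most 3 reads in a library, PTPRC 6, LUM 7, VWF 8, LYZ 2 and CDH5 1, and DCN, CD3E and HBB are not listed. The libraries are of a cell line, and whether these reads came from the line itself or from other cells was not tested. In bulk RNA, fewer cells of a type and less RNA per cell cannot be told apart.

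Histone tails carry lysines that acetyltransferases acetylate and deacetylases clear, and acetylation is generally found at open, active chromatin. Lysine methylation is read by position. Methylation of H3K4 marks promoters and enhancers, H3K36 methylation marks transcribed gene bodies, and H3K9, H3K27 and H4K20 methylation is tied to silencing or compaction. Each position has its own writers (the KMT2, SETD, EHMT, EZH and KMT5 enzymes) and erasers (the KDM enzymes), and several of these genes are frequently mutated in breast cancer.

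More of these genes rose with khellin than fell. At an adjusted p under 0.05 (quasi-likelihood test of edgeR, Benjamini-Hochberg over all 15865 tested genes), 21 of the 58 were higher in khellin libraries, which is 36.2% of them, against 10.6% of all tested genes. Only HDAC8 and HDAC9 were lower, which is 3.45%, against 8.82% of all tested genes, and the remaining 35 did not pass. In either direction, 19.4% of all tested genes were called. The median log2 fold change of khellin over control was 0.08 over the 58 genes and 0.002 over all tested genes. The 6 libraries did not overlap between groups for 28 members higher in khellin (48.3%, against 20.2% of all tested genes) and for 5 members lower in khellin (8.62%, against 18% of all tested genes, and 38.2% in either direction). With scaling to library size only, which has no TMM factors, 26 members were higher and 1 lower, and 2208 of all tested genes were higher and 986 lower, in place of 1681 and 1399. Changes were small. No member changed 2-fold or more, and the median absolute log2 fold change was 0.27 among called members and 0.35 among all called genes.

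These counts depended on single libraries. The number of members called higher was 8 without khellin replicate 1, 6 without khellin replicate 2, 6 without khellin replicate 3 and 10 without control replicate 2, with 1 member called lower in each of these fits. Over all tested genes, the same 4 fits called 5.95%, 6.65%, 5.71% and 6.05% higher, and 4.28%, 5.18%, 4.0% and 4.76% lower. Leaving out control replicate 1 gave 21 members higher and 1 lower, against 12.3% and 10.7% of all tested genes. Leaving out control replicate 3 gave 18 members higher and 4 lower, against 11.6% and 10.1% of all tested genes. HDAC6, HDAC4, KMT2A, KAT6B and HDAC9 were called in all 6 of these fits.

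**Figure D1:**
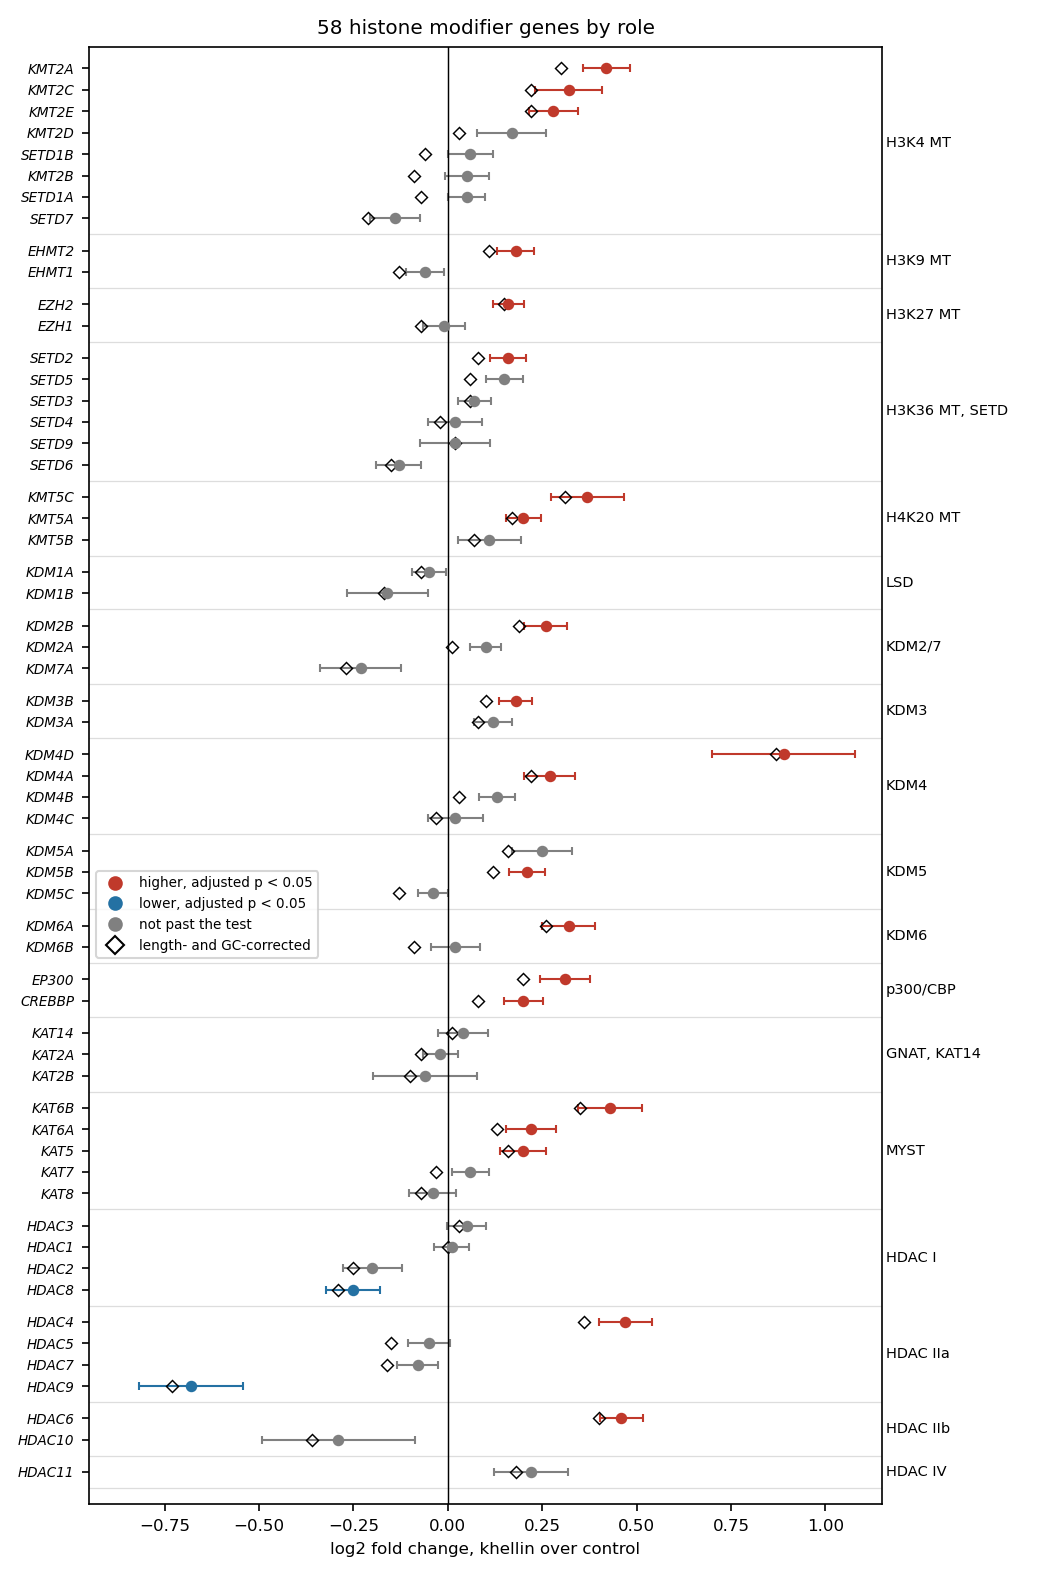
Log2 fold change of khellin over control for the 58 genes, grouped by role (filled circles, bars are 1 standard error). Open diamonds are the values after correction for transcript length and GC content. KDM4D (0.89) and HDAC9 (-0.68) lie farthest from 0, and most members lie right of it.

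EP300, CREBBP and KDM4D are shown by the 250 bases before the RefSeq transcription start (GRCh38.p14), since EP300 and CREBBP are a pair of related genes that both rose and KDM4D had the largest fold change in the set. Capitals mark matches, on either strand, to a GC box (GGGCGG) or a CCAAT box (CCAAT). The windows are chr22:41092342-41092591 (+ strand) for EP300, chr16:3880714-3880963 (- strand) for CREBBP and chr11:94973459-94973708 (+ strand) for KDM4D. Each ends at the base before the gene start given in the count table.
EP300: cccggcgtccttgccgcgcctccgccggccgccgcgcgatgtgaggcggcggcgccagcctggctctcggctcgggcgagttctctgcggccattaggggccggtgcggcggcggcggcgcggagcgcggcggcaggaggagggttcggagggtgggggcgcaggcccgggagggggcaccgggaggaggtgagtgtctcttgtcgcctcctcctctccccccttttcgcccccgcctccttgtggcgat
CREBBP: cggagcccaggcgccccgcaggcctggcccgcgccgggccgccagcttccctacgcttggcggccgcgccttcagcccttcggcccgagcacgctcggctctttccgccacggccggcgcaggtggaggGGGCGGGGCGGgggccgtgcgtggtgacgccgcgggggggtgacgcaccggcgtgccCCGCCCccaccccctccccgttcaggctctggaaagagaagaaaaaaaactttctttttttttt
KDM4D: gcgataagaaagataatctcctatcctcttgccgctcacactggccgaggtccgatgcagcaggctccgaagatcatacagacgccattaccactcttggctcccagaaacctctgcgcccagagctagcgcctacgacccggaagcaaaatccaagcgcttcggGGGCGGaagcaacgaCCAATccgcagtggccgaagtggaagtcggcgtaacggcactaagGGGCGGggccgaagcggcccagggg
The EP300 window held no match, the CREBBP window held 3 GC boxes, of which 2 overlap, and the KDM4D window held 2 GC boxes and a CCAAT box. Of the 58 members, 54 had such a window among 35116 RefSeq promoters, the exceptions being SETD1B, HDAC5, KAT6A and KAT8. A GC box was found in 36 of the 54 (66.7%), against 42.6% of all promoters of the same length. A CCAAT box was found in 18 of the 54 (33.3%), against 32.0% of all promoters. The 35116 promoters outnumber the 17095 protein-coding genes in the count table. All members are protein-coding and passed the filter on low counts, so the sets compared are not matched. The AP-1 motif TGANTCA occurred in 3 member windows (5.56%, against 6.57% of all promoters), those of HDAC9, KDM4C and KDM6A. For 9 of the 54 members the RefSeq start lay 7871 to 408800 bases from the gene start in the count table, among them HDAC9 at 408800 and KDM4C at 37110 bases, so their windows stand for another start. Among the 20 members with a window that were called higher, 13 had a GC box, 9 a CCAAT box and 1 an AP-1 motif. No member window held the CRE motif TGACGTCA or the E2F motifs TTTCGCGC and TTTGGCGC, which occurred in 1.65% and 0.968% of all promoters. These matches describe the letters only.

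The called deacetylase genes moved in different directions. HDAC6 and HDAC4 rose, HDAC9 and HDAC8 fell, and 7 more were not called. The same test called 10.6% of all tested genes higher and 8.82% lower. HDAC6 encodes the mainly cytoplasmic class IIb enzyme that deacetylates tubulin and binds ubiquitin, and its gene (ENSG00000094631) lies at chrX:48801377-48824982. It had 46.3, 47.5 and 45.8 CPM in khellin libraries, against 33.3, 32.9 and 35.1 CPM in control libraries. The groups stood well apart, and each khellin library was above each control library. That was a 1.38-fold rise, a log2 fold change of 0.46 with a standard error of 0.0561 (edgeR adjusted p = 5.7e-04), and it stayed at 0.40 after correction for transcript length and GC content.

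The class IIa enzymes shuttle between nucleus and cytoplasm, have little deacetylase activity of their own and repress MEF2 target genes. HDAC4 (ENSG00000068024, chr2:239048168-239401654) had 32.1, 33.3 and 33.5 CPM in khellin libraries, against 24.0, 25.7 and 21.9 CPM in control libraries. That is 33.0 ± 0.738 CPM with khellin and 23.9 ± 1.86 CPM in control (SD, n = 3 each), a log2 fold change of 0.47 with a standard error of 0.0700 (edgeR adjusted p = 0.00184). HDAC9, its relative (ENSG00000048052, chr7:18086949-19002416), went the other way. It had 41.2, 38.6 and 43.6 CPM in khellin libraries, against 81.7, 61.6 and 53.9 CPM in control libraries. All khellin values lay close together and below all control values, while the control libraries were spread widely, with replicate 1 far the highest. The log2 fold change was -0.68 with a standard error of 0.138 (edgeR adjusted p = 0.0106), which is 1.6-fold lower with khellin. Without control replicate 1 it was -0.49 (edgeR adjusted p = 7.0e-04), and with no filter on low counts the call was lost (adjusted p = 0.111). The other class IIa members, HDAC5 and HDAC7, had log2 fold changes of -0.05 and -0.08 (edgeR adjusted p = 0.563 and 0.311), and both were called lower after the length and GC correction, at -0.15 and -0.16 (edgeR adjusted p = 0.0159 and 0.00543). That fit called 20.6% of all tested genes lower, and correction for length alone called neither gene (edgeR adjusted p = 0.236 and 0.17).

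Class I holds the nuclear deacetylases of the SIN3, NuRD, CoREST and NCoR complexes. HDAC1 averaged 138.6 ± 1.05 CPM in khellin and 137.5 ± 6.52 CPM in control libraries (SD, n = 3 each). Its log2 fold change was 0.01 (edgeR adjusted p = 0.897), and the sign turned with RLE scaling factors (-0.0019) and with the length correction (-0.01). HDAC3, the catalytic subunit of the NCoR complex, averaged 67.7 ± 1.18 CPM in khellin and 65.5 ± 2.93 CPM in control libraries (SD, n = 3 each), a log2 fold change of 0.05 that did not pass (edgeR adjusted p = 0.586). HDAC2 had 236.7, 204.4 and 233.6 CPM in khellin libraries, against 284.0, 250.9 and 238.0 CPM in control libraries. Its groups did not overlap, but control replicate 3 came within a few CPM of khellin replicates 1 and 3. The log2 fold change of -0.20 (standard error 0.0776) did not pass (edgeR adjusted p = 0.116), and after the length and GC correction it was -0.25 (edgeR adjusted p = 1.2e-04). HDAC8, which deacetylates the cohesin subunit SMC3, had 10.6, 9.82 and 9.73 CPM in khellin libraries, against 11.7 to 12.1 CPM in control libraries. The groups stood apart, and the log2 fold change was -0.25 with a standard error of 0.0718 (edgeR adjusted p = 0.0391). The call was lost on leaving out any one library other than control replicate 3 (edgeR adjusted p of 0.0616 to 0.147), and also in DESeq2 (adjusted p = 0.0789), with scaling to library size only (edgeR adjusted p = 0.0771) and with no filter on low counts (edgeR adjusted p = 0.0607).

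HDAC10, a polyamine deacetylase, had the fewest reads of the deacetylases, with 33 to 48 counts in khellin and 40 to 62 counts in control libraries. HDAC10 had a log2 fold change of -0.29 with a standard error of 0.202 (edgeR adjusted p = 0.36), and 55.8% of its exon length in GENCODE 29 is shared on the same strand with MAPK12, so reads from that stretch cannot be told apart. HDAC11, the only class IV member, had 8.62, 8.27 and 9.41 CPM in khellin libraries, against 6.69, 7.68 and 8.14 CPM in control libraries. The groups did not overlap, yet the log2 fold change of 0.22 missed the threshold (edgeR adjusted p = 0.14).

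Among the acetyltransferases, both paired coactivators and 3 of 5 MYST enzymes rose in the uncorrected edgeR test, while none of the GNAT group did. That test called 10.6% of all tested genes higher. Of the MYST genes, DESeq2 called KAT6B only. After correction for length alone, EP300 and KAT6B were the only acetyltransferase genes called. The other genes that had risen were then at edgeR adjusted p of 0.0615 (KAT5), 0.0718 (KAT6A) and 0.135 (CREBBP). EP300 encodes p300, which with CBP acetylates H3K27 and H3K18 at enhancers. EP300 (chr22:41092592-41180077) had 126.6, 136.6 and 130.2 CPM in khellin libraries, against 112.3, 110.3 and 95.4 CPM in control libraries. Khellin and control libraries did not overlap, with control replicate 3 the lowest. EP300 rose by a log2 fold change of 0.31 with a standard error of 0.0659 (edgeR adjusted p = 0.0111). It was 0.20 after the length and GC correction (edgeR adjusted p = 0.00378), and the call was just lost without khellin replicate 2 (adjusted p = 0.052) or without khellin replicate 3 (adjusted p = 0.0503). CREBBP (chr16:3725054-3880713), which encodes CBP, had 134.4, 134.6 and 132.4 CPM in khellin libraries, against 118.3, 122.4 and 109.0 CPM in control libraries. The khellin libraries were nearly level and all above control. The log2 fold change of 0.20 (standard error 0.0514, edgeR adjusted p = 0.0248) became 0.08 after the length and GC correction and no longer passed (edgeR adjusted p = 0.0846). It also did not pass on leaving out any one khellin replicate (edgeR adjusted p of 0.083 to 0.0936).

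KAT6B and KAT6A encode the catalytic subunits of the MORF and MOZ complexes, which acetylate H3K23 and H3K14. KAT6B (ENSG00000156650, chr10:74824927-75032624) had 31.9, 30.2 and 28.9 CPM in khellin libraries, against 23.2, 24.4 and 19.7 CPM in control libraries. Every khellin library was above every control library by several CPM. KAT6B rose by a log2 fold change of 0.43 with a standard error of 0.0851 (edgeR adjusted p = 0.00757), and 0.35 after the length and GC correction. KAT6A had 74.8, 75.0 and 73.3 CPM in khellin libraries, against 68.8, 65.5 and 57.7 CPM in control libraries. It passed narrowly (log2 fold change 0.22, edgeR adjusted p = 0.0497), and lost the call on leaving out any one library other than control replicate 1 (adjusted p up to 0.148) and in DESeq2 (adjusted p = 0.0584). KAT5, the TIP60 enzyme of the NuA4 complex, averaged 21.3 ± 0.651 CPM in khellin and 18.6 ± 0.242 CPM in control libraries (SD, n = 3 each). That rise (log2 fold change 0.20, edgeR adjusted p = 0.049) was lost on leaving out any one of the 6 libraries (adjusted p of 0.0661 to 0.166) and in DESeq2 (adjusted p = 0.137). Other alternatives also ended the KAT5 call, among them RLE scaling factors (edgeR adjusted p = 0.0661) and no filter on low counts (edgeR adjusted p = 0.113). In GENCODE 29, 38.6% of the gene's exon length lies opposite exons of RNASEH2C.

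KAT7, the HBO1 enzyme for H3K14, and KAT8, the MOF enzyme for H4K16, had log2 fold changes of 0.06 and -0.04 (edgeR adjusted p = 0.419 and 0.664). KAT7 turned to -0.03 after the length and GC correction. In the GNAT group, KAT2A, the GCN5 enzyme of SAGA, averaged 130.7 ± 2.44 CPM in khellin and 132.4 ± 5.34 CPM in control libraries (SD, n = 3 each). Its log2 fold change of -0.02 (edgeR adjusted p = 0.817) was 0.03 with scaling to library size only. KAT2B, the PCAF gene, had 26.0, 20.8 and 26.0 CPM in khellin libraries, against 30.7, 23.0 and 22.1 CPM in control libraries. Its groups overlapped, as did those of KAT14, at 19.1 ± 0.645 CPM in khellin and 18.5 ± 0.788 CPM in control libraries (SD, n = 3 each). No member of this group had an unadjusted p under 0.05 in edgeR, and none was called by DESeq2 or limma-voom.

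**Figure D2:**
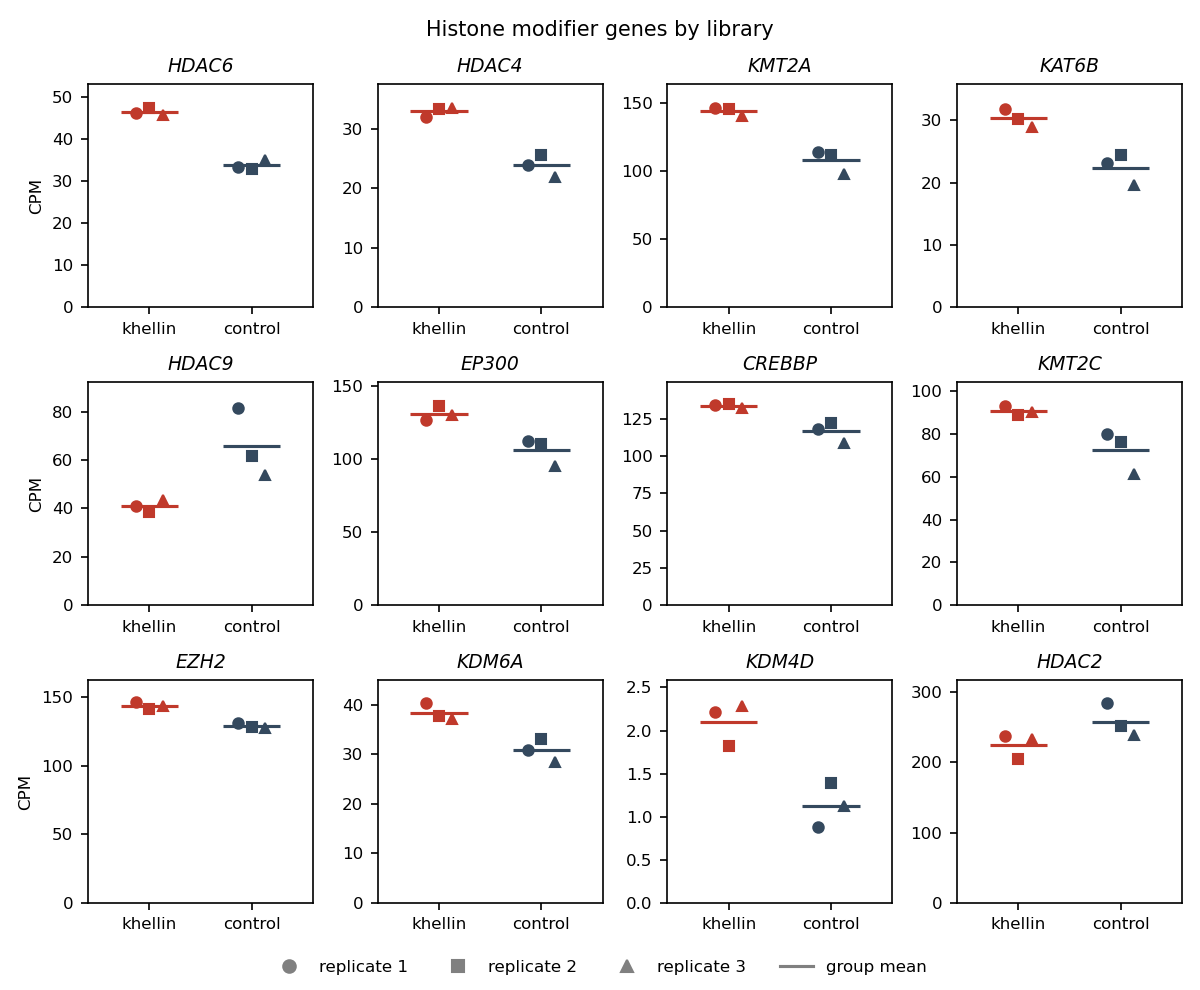
CPM in each library (linear axes from 0) for 12 of the genes, khellin left and control right, with marker shapes for replicates and a line at each group mean. In all 12 panels the groups do not overlap, with HDAC9 and HDAC2 the lower ones in khellin libraries, and control replicate 3 is the lowest library for HDAC4, KMT2A, KAT6B, EP300, CREBBP, KMT2C, EZH2 and KDM6A.

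Of the 8 genes grouped as H3K4 methyltransferases, KMT2A, KMT2C and KMT2E rose and 5 did not pass (median log2 fold change 0.12). The uncorrected edgeR test called 10.6% of all tested genes higher. After the length and GC correction 3 were higher and 1 lower (median -0.02), against 13.6% and 20.6% of all tested genes. KMT2A, also called MLL1 and known for leukaemia translocations, lies at chr11:118436456-118526832 (ENSG00000118058). It had 146.1, 145.6 and 140.2 CPM in khellin libraries, against 114.2, 111.3 and 97.5 CPM in control libraries. All khellin libraries stood above all control libraries by a wide margin. KMT2A rose by a log2 fold change of 0.42 with a standard error of 0.0619 (edgeR adjusted p = 0.00169) and 0.30 after the length and GC correction (edgeR adjusted p = 2.4e-05). In GENCODE 29, 17.9% of its exon length is shared on the same strand with AP001267.5.

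KMT2C and KMT2D are the large enhancer H3K4 monomethyltransferases. KMT2C had 93.2, 89.0 and 90.2 CPM in khellin libraries, against 80.2, 76.1 and 61.4 CPM in control libraries. No overlap was seen, and control replicate 3 was far the lowest. The log2 fold change was 0.32 with a standard error of 0.0897 (edgeR adjusted p = 0.0354), and 0.22 after the length and GC correction (edgeR adjusted p = 0.00291). The call was lost without khellin replicate 1, 2 or 3 or control replicate 2 (adjusted p up to 0.106), and pseudogene copies of KMT2C make its read assignment uncertain. KMT2D averaged 129.1 ± 2.32 CPM in khellin and 115.0 ± 16.8 CPM in control libraries (SD, n = 3 each). Here the groups overlapped, since control replicate 2, at 133.1 CPM, was the highest of all 6 libraries, and the log2 fold change of 0.17 did not pass (edgeR adjusted p = 0.241).

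KMT2E, whose product binds H3K4 methylation but is thought to lack enzyme activity, averaged 71.1 ± 1.69 CPM in khellin and 58.4 ± 4.92 CPM in control libraries (SD, n = 3 each). It rose by a log2 fold change of 0.28 with a standard error of 0.066 (edgeR adjusted p = 0.0156), a call lost without khellin replicate 1, 2 or 3 or control replicate 2 (adjusted p up to 0.0754). KMT2B, the closest relative of KMT2A, averaged 63.5 ± 2.3 CPM in khellin and 61.5 ± 3.25 CPM in control libraries (SD, n = 3 each), with overlapping groups. SETD1A and SETD1B, which carry out most promoter H3K4 trimethylation, had log2 fold changes of 0.05 and 0.06 (edgeR adjusted p = 0.568 and 0.49). SETD7, which monomethylates H3K4 and many other proteins, averaged 156.1 ± 7.42 CPM in khellin and 171.5 ± 14.4 CPM in control libraries (SD, n = 3 each). Its log2 fold change of -0.14 did not pass (edgeR adjusted p = 0.181), and it was called lower after the length and GC correction, at -0.21 (edgeR adjusted p = 5.0e-04).

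The writers of H3K27 and H3K9 methylation each had a member that rose and a member that did not pass. Of all tested genes, 10.6% were called higher. EZH2 (chr7:148807257-148884321), the main catalytic subunit of PRC2 in dividing cells and a gene often abundant in triple-negative tumours, had 146.7, 141.2 and 143.3 CPM in khellin libraries, against 130.9, 128.0 and 127.8 CPM in control libraries. Both groups were tight and did not overlap. EZH2 rose by a log2 fold change of 0.16 with a standard error of 0.0414 (edgeR adjusted p = 0.0267), and the correction for length and GC content left it at 0.15. It was not called by DESeq2 (adjusted p = 0.0626), nor without khellin replicate 1, 2 or 3 or control replicate 2 (edgeR adjusted p up to 0.128). EZH1, its counterpart in resting cells, averaged 45.0 ± 1.54 CPM in khellin and 45.5 ± 1.49 CPM in control libraries (SD, n = 3 each). EHMT2, the G9a enzyme for H3K9 monomethylation and dimethylation, had 98.4, 101.1 and 97.0 CPM in khellin libraries, against 83.3, 90.5 and 88.6 CPM in control libraries. It rose by a log2 fold change of 0.18 (standard error 0.0492, edgeR adjusted p = 0.0339), or 0.11 after the length and GC correction, and lost the call on leaving out any one library other than control replicate 3 (adjusted p up to 0.118) and in DESeq2 (adjusted p = 0.0744). EHMT2-AS1 lies opposite 8.12% of its exon length. EHMT1, which encodes the partner GLP, had overlapping groups (log2 fold change -0.06, edgeR adjusted p = 0.481) and was called lower after the length and GC correction (-0.13, edgeR adjusted p = 0.00653). Correction for length alone did not call EHMT1 (edgeR adjusted p = 0.22).

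Of the H4K20 enzymes, KMT5A and KMT5C rose and KMT5B did not pass, in a test that called 10.6% of all tested genes higher. KMT5A, the cell-cycle-regulated monomethyltransferase, averaged 104.2 ± 0.531 CPM in khellin and 90.9 ± 3.2 CPM in control libraries (SD, n = 3 each), a log2 fold change of 0.20 (edgeR adjusted p = 0.015). KMT5C, which adds the further methyl groups, had 14.7, 15.2 and 14.0 CPM in khellin libraries, against 9.66, 11.8 and 12.4 CPM in control libraries. KMT5C rose by a log2 fold change of 0.37 with a standard error of 0.0977 (edgeR adjusted p = 0.027), and control replicate 1 was the lowest library. Both calls were lost without khellin replicate 1, 2 or 3 or control replicate 2 (adjusted p up to 0.0798 for KMT5A and 0.0924 for KMT5C). KMT5B, its paralogue, had a log2 fold change of 0.11 (edgeR adjusted p = 0.389).

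SETD2, the main H3K36 methyltransferase of transcribed genes, had 104.9, 98.0 and 101.5 CPM in khellin libraries, against 93.6, 90.3 and 88.5 CPM in control libraries. The groups did not overlap, and the log2 fold change of 0.16 passed narrowly (standard error 0.0482, edgeR adjusted p = 0.0446). It became 0.08 after the length and GC correction and no longer passed (edgeR adjusted p = 0.0998), and it also did not pass on leaving out any one library other than control replicate 1 (adjusted p up to 0.185) and in DESeq2 (adjusted p = 0.0938). The other SETD genes, several of which act on proteins other than histones, did not pass. SETD5 was nearest, at 181.2 ± 4.98 CPM in khellin and 163.8 ± 7.4 CPM in control libraries (SD, n = 3 each; edgeR adjusted p = 0.0626). SETD3, the actin histidine methyltransferase, SETD4 and SETD9 had log2 fold changes of 0.07, 0.02 and 0.02. SETD6, which methylates the NF-kB subunit RelA, was at -0.13 (edgeR adjusted p = 0.169) with groups that did not overlap, and 21.4% of its exon length lies opposite CNOT1.

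In the uncorrected edgeR test, at least 1 member rose in each of the KDM2, KDM3, KDM4, KDM5 and KDM6 families of JmjC demethylases. Neither LSD-type enzyme passed it. Of the 14 JmjC genes, KDM2B, KDM3B, KDM4A, KDM4D, KDM5B and KDM6A were called higher and none was called lower in that test. It called 10.6% of all tested genes higher and 8.82% lower. After the length and GC correction 2 of the 14, KDM5C and KDM7A, were called lower, in a fit that called 20.6% of all tested genes lower. After correction for length alone no KDM3 or KDM5 gene was called (edgeR adjusted p of 0.0509 to 0.301). KDM7A was then called lower (edgeR adjusted p = 0.0129), as were 13.5% of all tested genes. Without either correction, no gene of the 14 with a log2 fold change below 0 had an unadjusted p under 0.05, and DESeq2 and limma-voom called none lower.

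KDM6A, the X-linked UTX demethylase of H3K27 that works with KMT2C and KMT2D, had 40.3, 37.8 and 37.1 CPM in khellin libraries, against 30.9, 33.0 and 28.5 CPM in control libraries. The groups did not overlap, and the log2 fold change was 0.32 with a standard error of 0.07 (edgeR adjusted p = 0.0123), or 0.26 after the length and GC correction. The call was lost without khellin replicate 1 (adjusted p = 0.0634). KDM6B, the inducible H3K27 demethylase JMJD3, averaged 28.3 ± 1.77 CPM in khellin and 27.8 ± 0.281 CPM in control libraries (SD, n = 3 each). Its log2 fold change of 0.02 (edgeR adjusted p = 0.83) turned to -0.09 after the length and GC correction.

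KDM4D, an H3K9 demethylase best known from testis, had the largest fold change of the set but one of the lowest levels. It had 64, 54 and 70 counts in khellin libraries, against 26, 41 and 34 counts in control libraries, or 2.1 ± 0.249 CPM with khellin and 1.13 ± 0.258 CPM in control (SD, n = 3 each). The groups did not overlap. The log2 fold change was 0.89 with a standard error of 0.189, a 1.85-fold rise (edgeR adjusted p = 0.0105), and the call was lost without khellin replicate 3 (adjusted p = 0.0521). KDM4A, which demethylates H3K9 and H3K36, averaged 17.7 ± 0.79 CPM in khellin and 14.7 ± 0.472 CPM in control libraries (SD, n = 3 each), a log2 fold change of 0.27 (edgeR adjusted p = 0.0224). That call was lost without khellin replicate 2 or 3 or control replicate 2 (adjusted p up to 0.0934), and 40.2% of the gene's exon length is shared on the same strand with AL451062.3. KDM4B was at 0.13 (edgeR adjusted p = 0.0913) and KDM4C at 0.02 (edgeR adjusted p = 0.873).

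KDM2B, the H3K36 demethylase that brings a PRC1 variant to CpG islands, averaged 63.3 ± 2.91 CPM in khellin and 52.7 ± 1.87 CPM in control libraries (SD, n = 3 each). It rose by a log2 fold change of 0.26 (standard error 0.0571, edgeR adjusted p = 0.0116), a call lost without khellin replicate 2 (adjusted p = 0.0532). Its paralogue KDM2A was at 0.10 (edgeR adjusted p = 0.129). KDM7A, which acts on H3K9 and H3K27, was at -0.23 (edgeR adjusted p = 0.175) with overlapping groups, and was called lower after the length and GC correction (-0.27, edgeR adjusted p = 0.00176). KDM3B, an H3K9 demethylase, averaged 112.7 ± 0.959 CPM in khellin and 99.2 ± 2.42 CPM in control libraries (SD, n = 3 each), a log2 fold change of 0.18 (edgeR adjusted p = 0.0161). It was lost without khellin replicate 1, 2 or 3 or control replicate 2 (adjusted p up to 0.0812), and was 0.10 after the length and GC correction (edgeR adjusted p = 0.0228). Correction for length alone left 0.11 and ended the call (edgeR adjusted p = 0.109). KDM3A did not pass, at 0.12 (edgeR adjusted p = 0.111).

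The KDM5 enzymes remove H3K4 methylation. KDM5B, a gene often abundant in luminal breast tumours, had 80.8, 81.4 and 80.3 CPM in khellin libraries, against 71.3, 71.2 and 67.2 CPM in control libraries. Both groups were tight and apart, with a log2 fold change of 0.21 (standard error 0.0478, edgeR adjusted p = 0.0141). After the length and GC correction it was 0.12 (edgeR adjusted p = 0.0257), and the call was lost without khellin replicate 1, 2 or 3 or control replicate 2 (adjusted p up to 0.0674). Correction for length alone ended the call as well (edgeR adjusted p = 0.111). KDM5A averaged 60.8 ± 1.36 CPM in khellin and 51.3 ± 5.82 CPM in control libraries (SD, n = 3 each). Its log2 fold change of 0.25 just missed the threshold (edgeR adjusted p = 0.0571). After the length and GC correction it was 0.16 and passed (edgeR adjusted p = 0.011). X-linked KDM5C averaged 199.8 ± 3.77 CPM in khellin and 206.0 ± 1.14 CPM in control libraries (SD, n = 3 each), with groups that did not overlap. Its log2 fold change was -0.04 (edgeR adjusted p = 0.487), 0.00056 with scaling to library size only, and -0.13 after the length and GC correction (edgeR adjusted p = 0.00292). With correction for length alone KDM5C was at -0.11 and not called (edgeR adjusted p = 0.158).

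KDM1A, the flavin-dependent LSD1 enzyme of the CoREST complex, averaged 122.2 ± 3.86 CPM in khellin and 126.2 ± 2.4 CPM in control libraries (SD, n = 3 each; log2 fold change -0.05, edgeR adjusted p = 0.505). KDM1B, its relative LSD2, had 54.0, 49.9 and 55.6 CPM in khellin libraries, against 70.6, 54.4 and 53.1 CPM in control libraries. Control replicate 1 stood alone above the rest, and the log2 fold change of -0.16 did not pass (edgeR adjusted p = 0.343). Neither gene had an unadjusted p under 0.05, and neither was called by DESeq2 or limma-voom.

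Levels per length, as mean CPM per kilobase of transcript over the 6 libraries, differed widely between members. HDAC1 was the most abundant at 65.0 CPM per kilobase, followed by EZH2 at 51.7, KAT2A at 42.3, KDM1A at 40.6 and SETD3 at 40.4. The lowest were KDM4D at 0.543, HDAC10 at 0.572, HDAC8 at 1.93 and KDM7A at 2.03. Among the 5 most abundant, EZH2 was the only one called. The ranking rests on the longest protein-coding transcript of each gene, which need not be the one expressed. HDAC2 averaged 224.9 CPM in khellin and 257.6 CPM in control libraries, above HDAC1. Over a transcript of 9874 bases, against 2124 for HDAC1, this gave 24.4 CPM per kilobase.

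For 11 pairs of related genes, the ratio of their counts was taken within each library. The HDAC4 to HDAC9 ratio was 0.781, 0.863 and 0.767 in khellin libraries, against 0.293, 0.416 and 0.407 in control libraries. The KMT2A to KMT2B ratio was 2.34, 2.2 and 2.26 in khellin libraries, against 1.97, 1.78 and 1.52 in control libraries. Both ratios were higher in every khellin library. The KDM6A to KDM6B ratio was 1.39, 1.28 and 1.41 in khellin libraries, against 1.12, 1.18 and 1.02 in control libraries. The EZH2 to EZH1 ratio was 3.39, 3.06 and 3.15 in khellin libraries, against 2.93, 2.87 and 2.71 in control libraries. The ratios of EHMT2 to EHMT1 and of KDM5B to KDM5C were also higher in every khellin library, by 0.23 and 0.25 on the log2 scale. For each of these 6 ratios a 2-sided exact permutation test gave p = 0.1, the smallest that 3 against 3 libraries allow, and 0.183 with Benjamini-Hochberg adjustment over the 11 ratios. The groups overlapped for EP300 to CREBBP (exact permutation p = 0.2, adjusted 0.314), KMT2C to KMT2D, HDAC1 to HDAC2, KDM1A to KDM1B and KAT2A to KAT2B (exact permutation p of 0.3 to 0.9). The pairs were chosen after the counts were seen.

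**Figure D3:**
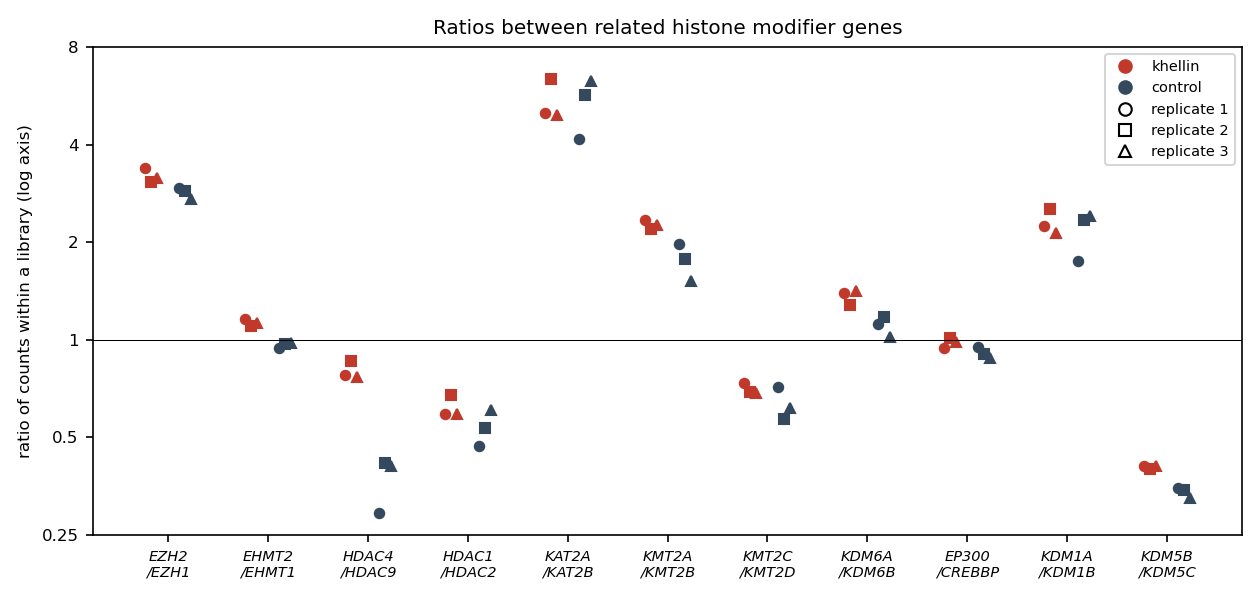
Ratio of counts of 2 related genes within each library (log axis), khellin left and control right of each tick, with marker shapes for replicates. The HDAC4 to HDAC9 ratio lies between 0.767 and 0.863 in khellin libraries and between 0.293 and 0.416 in control libraries.

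Transcript length moved with these results. Member transcripts were long, with a median of 5507 bases (1619 to 19419) against 3115 bases for all tested genes with a length, and 45 of the 58 were above that median. When the genes were split into 10 length classes of equal size, 18 members fell in the longest class. In that class the median log2 fold change over all genes was 0.06, 16.4% of genes were higher and 6.93% lower, and of its 18 members 9 were higher and 1 lower. In the shortest class, which held no member, the median was -0.05, with 4.31% of genes higher and 5.62% lower. Across the 15299 genes with a length, Spearman's rho between log2 fold change and transcript length was 0.115, a description across genes that share the same 6 libraries. It was -0.00664 without control replicate 3 and 0.2 without control replicate 1.

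The length trend between pairs of single control libraries was larger than that of the fit between groups (rho 0.115). These are unlike measures, since the fit averages over 3 libraries per group. For khellin replicates 1, 2 and 3, each minus the control mean, rho was 0.149, 0.0391 and 0.134. For the log2 difference of control replicate 1 minus 3 rho was 0.383, for control replicate 2 minus 3 it was 0.348 and for control replicate 1 minus 2 it was 0.209. Between khellin libraries it ranged from -0.127 to 0.159. The median of all genes in the longest class deviated by -0.145 (log2) in control replicate 3 from the mean of the 6 libraries, and that of the 58 members by -0.071. The members' median deviation was 0.056, 0.073 and 0.039 in the khellin libraries, against -0.037, -0.042 and -0.071 in the control libraries. The longest class deviated by 0.052, 0.008 and 0.054 in the khellin libraries, against 0.052 and -0.019 in control replicates 1 and 2.

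**Figure D4:**
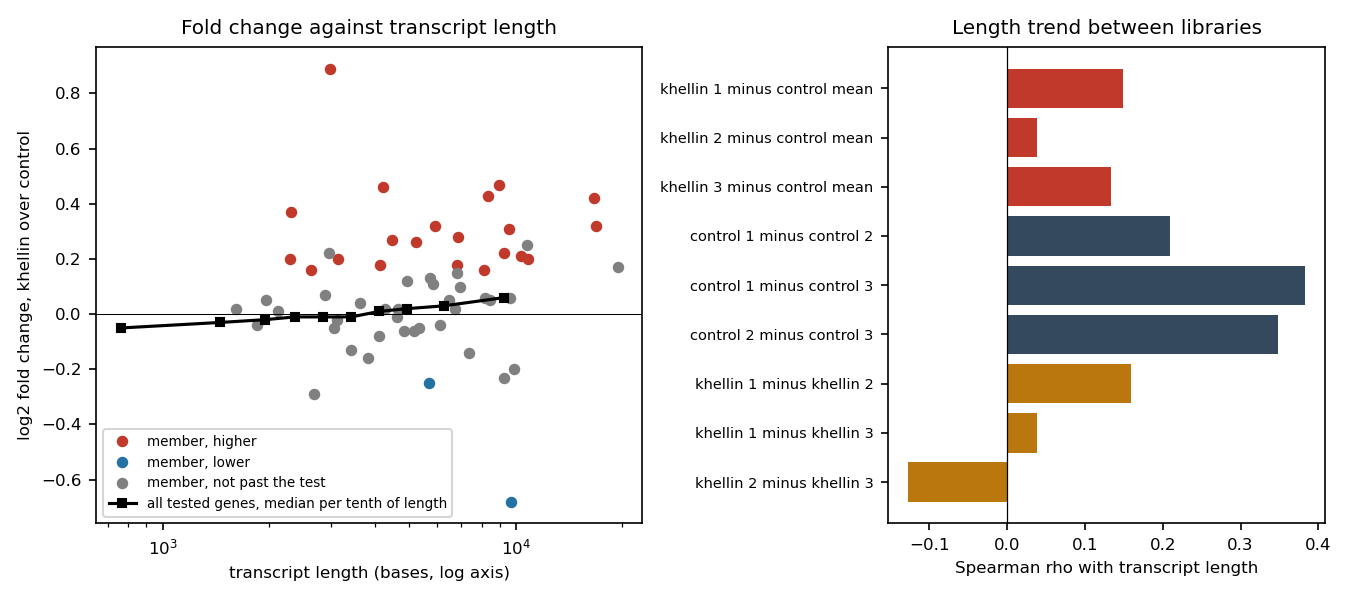
Left, log2 fold change against transcript length (log axis) for the 58 members, with the median of all tested genes in each of 10 length classes. Right, Spearman's rho between transcript length and the log2 difference of the named libraries, with control pairs reaching 0.383 and khellin libraries against the control mean reaching 0.149.

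Counts of members were therefore repeated with length and GC content fitted in each library. After correction for length alone, 14 members were higher (24.1%, against 9.88% of all tested genes) and 5 lower (8.62%, against 13.5%), with 23.4% of all tested genes called in either direction. After correction for length and GC content, 20 were higher (34.5%, against 13.6%) and 10 lower (17.2%, against 20.6%, and 34.2% in either direction), and the medians were 0.03 for the members and -0.03 for all tested genes. Of the 21 members called higher at first, 19 were called higher after the length and GC correction. CREBBP and SETD2 were lost, and KDM5A was gained. The 8 members newly called lower were EHMT1, HDAC2, HDAC5, HDAC7, KDM5C, KDM7A, SETD6 and SETD7. Of these, HDAC2, KDM7A and SETD7 were called lower with correction for length alone, and the rest were not. Correction for length alone also ended the calls of EHMT2, KAT5, KAT6A, KDM3B and KDM5B. The longer 29 members had a median log2 fold change of 0.15, with 12 higher and 2 lower, and the shorter 29 a median of 0.02, with 9 higher. After the length and GC correction the longer 29 had 11 higher and 6 lower, and the shorter 29 had 9 higher and 4 lower. The part of transcript length and GC content in the members' fold changes was not tested beyond these fits.

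Partners of these enzymes were described by 10 lists of complex subunits and related genes. Of 188 tested partners 30 were higher (16.0%, against 10.6% of all tested genes) and 8 lower (4.26%, against 8.82%), with a median log2 fold change of 0.04. After correction for length alone 21 partners were higher and 11 lower, against 9.88% and 13.5% of all tested genes. The length and GC correction gave 36 higher and 36 lower partners, against 13.6% and 20.6% of all tested genes. The largest rise among those named was in CHD6, a chromatin remodeller, at 72.1 ± 0.683 CPM in khellin and 50.7 ± 3.9 CPM in control libraries (SD, n = 3 each), a log2 fold change of 0.51 (edgeR adjusted p = 6.6e-04). JADE2, a scaffold subunit of HBO1 complexes, averaged 95.6 ± 1.57 CPM in khellin and 70.0 ± 2.75 CPM in control libraries (SD, n = 3 each), a log2 fold change of 0.45 (edgeR adjusted p = 3.1e-04). Both kept their call under each alternative tried here.

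Among 28 PRC2 and PRC1 genes, 4 were higher (14.3%) and 1 lower (3.57%), with a median of -0.02, against 10.6% and 8.82% of all tested genes. After the length and GC correction 5 were higher and 7 lower (median -0.05), against 13.6% and 20.6% of all tested genes. The same shares of all tested genes hold for the other lists. PHF19, a PRC2 accessory subunit that reads H3K36 methylation, rose by 0.33 (edgeR adjusted p = 0.00372), and CBX6, a reader of H3K27 methylation in PRC1, fell by 0.22 on the log2 scale (edgeR adjusted p = 0.00694, or 0.051 without khellin replicate 3). Of the 13 KMT2 complex subunits, 4 were higher and none lower in edgeR or DESeq2 without the length and GC correction, with 1 lower at an unadjusted p under 0.05 (median 0.12). With it, 5 were higher and 3 lower. ASH2L was at 0.22 (edgeR adjusted p = 0.0201, up to 0.106 without khellin replicate 1, 2 or 3 or control replicate 2). Of 16 other methyltransferases, 2 were higher, namely the H3K36 enzymes NSD1 at 0.25 (edgeR adjusted p = 0.0071) and NSD2 at 0.17 (edgeR adjusted p = 0.0107), and SMYD2 was lower, at -0.18 (edgeR adjusted p = 0.0361, up to 0.165 without khellin replicate 1, 2 or 3 or control replicate 2). The NSD2 call ended with the length and GC correction (0.09, edgeR adjusted p = 0.106), and without khellin replicate 2 (edgeR adjusted p = 0.0501) or khellin replicate 3 (edgeR adjusted p = 0.0615). After the length and GC correction 2 genes of this list were higher and 4 lower. Of 9 other JmjC genes, the ribosome-linked hydroxylase gene RIOX2 was lower, at -0.29 (edgeR adjusted p = 0.00357), and none was higher in edgeR or DESeq2, with 1 at an unadjusted p under 0.05. The length and GC correction gave 3 lower in that list.

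Partners of deacetylases had 8 of 34 genes higher and 3 lower (median 0.07), or 7 higher and 7 lower after the length and GC correction. PHF21A, a CoREST subunit that reads unmethylated H3K4, rose by 0.31 (edgeR adjusted p = 0.00285), and TBL1X of the NCoR complex rose by 0.26 (edgeR adjusted p = 0.00405), while the NuRD subunit GATAD2A fell by 0.22 on the log2 scale (edgeR adjusted p = 0.0118). The fall of GATAD2A was lost without khellin replicate 1 or 3 or control replicate 2 (edgeR adjusted p up to 0.0732). Acetyltransferase complexes had 5 of 44 subunit genes higher (11.4%) and 2 lower (4.55%), a share of higher genes near that over all tested genes, or 8 higher and 2 lower after the length and GC correction (median 0.04 before it). TRRAP, the scaffold of SAGA and NuA4, was at 0.26 (edgeR adjusted p = 0.0097, or 0.0536 without khellin replicate 3). Of 7 sirtuins 1 was higher, the mitochondrial SIRT3, at 0.28 (edgeR adjusted p = 0.0105, up to 0.0593 without khellin replicate 1 or 3 or control replicate 2), and after the length and GC correction 1 was higher and 3 lower. Of 3 BET readers 1 was higher, BRD3, at 0.24 (edgeR adjusted p = 0.0135, up to 0.078 without khellin replicate 1 or 3 or control replicate 2), and the other 2 were called lower after the length and GC correction. Of 27 SWI/SNF and other remodeller genes 5 were higher and none lower in edgeR or DESeq2 without the length and GC correction, with 0 lower at an unadjusted p under 0.05 (median 0.08). With it, 7 were higher and 3 lower. None of 8 DNA methylation genes was called by edgeR or limma-voom without the length and GC correction, with 3 higher at an unadjusted p under 0.05 and 1 called higher by DESeq2, and with that correction 2 were called lower.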

How the data were processed

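Polyadenylated RNA of MDA-MB-231 cells was sequenced in 3 khellin and 3 control libraries, grouped by the sample titles. The values used are raw read counts per gene, deposited by the authors. The submitters' processing notes name fastp, HISAT2 and HTSeq; versions, genome build, annotation and strand setting are not given in the sources used here. GRCh38 was inferred by comparison, since the positions of 25332 of 25378 shared identifiers overlapped GENCODE 29. Since the strand setting is not given, reads of antisense genes may not be told apart. How reads shared by overlapping genes were counted is not known either. 28 of the 58 members overlap another gene's exons, 4 of them over at least 20% of exon length.

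The members and lists were chosen with earlier results of these data known. Genes were filtered with filterByExpr, scaled with TMM and tested with edgeR's robust quasi-likelihood test, 2-sided, on group alone. P-values were adjusted by Benjamini-Hochberg over all 15865 tested genes, and an adjusted p under 0.05 was a call. A standard error was the absolute log2 fold change divided by the square root of F. Total counts of 28631578 to 30956610 per library limit precision, and the common biological coefficient of variation was 6.95%. Replicate libraries of a group differed beyond sampling noise (chi-square per degree of freedom of at least 1.91).

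Named members were those called, the most abundant of each role, and EZH2, EP300, CREBBP, KMT2D, HDAC1, HDAC2, HDAC3, KDM1A, KDM5B and KDM6B. In each list of partners they were the 2 genes of smallest p per direction among those called, of which some are not reported here. Other members were named after their values were seen, as were the ratios and motifs. Transcript length was that of the longest protein-coding transcript in GENCODE 29. The length and GC correction used offsets per library from mgcv. Alternatives were RLE, upper quartile and library size scaling, no filter, at least 1 CPM in 3 libraries, DESeq2, limma's voom, a block for replicate numbers, the length corrections, an adjusted p under 0.01 and each library left out. The test was tested on simulated data. Promoter sequences came from RefSeq. Python 3.11.15 with SciPy 1.17.1 and R 4.3.3 were used, with the packages mgcv 1.9.3, DESeq2 1.42.0, limma 3.58.1 and edgeR 4.0.16.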

Additional observations from a re-analysis of the deposited data

How the results depend on the processing

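Members called higher numbered 21 and members called lower 2. RLE (17 and 2), upper quartile (20 and 2), library size only (26 and 1), no filter (20 and 0), 1 CPM in 3 libraries (21 and 2), DESeq2 (17 and 1), limma-voom (21 and 2) and the replicate block (19 and 1) kept the count of higher members within 1.5 times. Correction for length gave 14 and 5, for length and GC content 20 and 10, for union exon length 13 and 5, and for length and GC content with a replicate block 19 and 10. The last 2 were chosen after the data were seen. An adjusted p under 0.01 left 4 and 0. Leaving out 1 library gave 6 to 21 higher and 1 to 4 lower members, and over all tested genes 919 to 1990 higher and 643 to 1722 lower. All tested genes called higher were 808 at 0.01, and those lower were 608 at 0.01, 2148 with the length correction, 3276 with length and GC content and 3116 with these and the block. Partner genes called higher were 46 with library size only, 8 at 0.01 and 8 to 40 without 1 library. Partner genes called lower were 5 with library size only, 36 with length and GC content, 32 with these and the block, 2 at 0.01 and 1 to 13 without 1 library. The length trend (rho 0.115) was 0.052 with no filter, 0.017 after the length correction, 0.0206 after length and GC content, 0.0205 with these and the block, 0.045 for gene span, and -0.00664 to 0.2 without 1 library. The cause of these shifts was not tested. Signs turned for genes near 0, namely HDAC1 (-0.0019 with RLE and DESeq2, -0.01 with either length correction, -0.0048 with length and GC content, -0.0045 with these and the block, -0.01 to 0.05 without 1 library, negative without control replicate 1 or 2), KAT2A (0.03 with library size only, 0.01 without control replicate 3), KAT7 (-0.02 with length, -0.03 with length and GC content with or without the block, -0.00022 with union exon length), KDM5C (0.00056 with library size only) and KDM6B (-0.04 with length, -0.09 with length and GC content with or without the block, -0.02 with union exon length, -0.01 to 0.08 without 1 library, negative without khellin replicate 2). EZH1, KAT2B, KMT2B, KDM4C, SETD1A, SETD1B, SETD4 and SETD9 also changed sign under at least 1 alternative. The replicate block rests on a shared number only. Deviations of same-numbered libraries correlated at 0.136, 0.0339 and -0.119, and khellin replicates 2 and 3 correlated best with control replicates 3 and 1. Depth limits KDM4D and HDAC10, with fewer than 100 counts in each library.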
